A study of Mus musculus with 48 samples.

Results

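Clones carrying an edited small-subunit gene, Rps15, were compared with clones carrying an edited large-subunit gene, all made with CRISPR-Cas9 in Ba/F3, a murine line of pro-B cells whose growth depends on interleukin 3. The members were chosen by their labelled genotype: 6 Rps15 clones and 15 large-subunit clones, that is 21 of the 24 clones and 42 of the 48 libraries of the series, since each clone gave 1 RNA library and 1 library of ribosome footprints. The Rps15 clones were homozygous for a point mutation, P131S/P131S in 3 clones and H137Y/H137Y in 3. The large-subunit clones were 3 each of Rpl5+/-, Rpl11+/-, Rpl22+/-, Rpl22-/- and Rpl10 R98S/R98S. Titles of the P131S RNA libraries give the mutation once, while the genotype label of the same libraries gives it on both alleles. All groups were grown with 1 ng/ml interleukin 3 and 10% serum and received 0.1 mg/ml cycloheximide for 1 min before harvest. The lysate of a clone was divided, 1 part for poly(A)-selected RNA-seq and the other for footprints of 28 to 30 nt. The 3 wild-type (WT) clones entered no comparison, and their levels are given only beside those of the mutants.

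RPS15 sits in the head of the small ribosomal subunit, and its C-terminal tail reaches towards the decoding center, where codon and tRNA meet. Mutations in that tail recur in chronic lymphocytic leukemia. RPL5 and RPL11 bind 5S rRNA in the large subunit and, when free, inhibit MDM2 and so stabilize p53, while RPL10 joins late in large-subunit maturation and RPL22 is dispensable for ribosome assembly. A footprint is the stretch of mRNA that a ribosome protects from nuclease, so footprints report how many ribosomes sit on a gene's mRNA, and the ratio of footprints to RNA, called translational efficiency here, reports ribosomes per mRNA.

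The question was which genes set the Rps15 clones apart from ribosomal mutants of the other subunit at the level of RNA, footprints and efficiency. Library totals ran from 26200445 to 34760822 estimated counts for the RNA of Rps15 clones and from 13029073 to 38258559 for that of large-subunit clones, and from 15598994 to 72044439 for footprints. Levels are given as CPM, that is counts scaled to a common library size, with TMM factors, and log2 differences are the mean of the 2 Rps15 genotypes minus the mean of the 5 large-subunit genotypes, tested with edgeR's quasi-likelihood F test. Genes with a Benjamini-Hochberg adjusted p under 0.05 over all genes tested are called higher or lower. Mitochondrially encoded transcripts took 2.81% to 4.8% of RNA counts in Rps15 clones and 2.63% to 3.17% in large-subunit clones. On the first principal component, which held 32.9% of the RNA variance and 20% of the footprint variance over these clones, the 6 Rps15 clones lay apart from the 15 large-subunit clones. The labels name separate clones, so p-values measure the spread between clones, and no label says whether the clones of 1 genotype were edited independently.

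Levels of the edited genes were compared with the labelled genotypes. Rps15 RNA was 907, 1825 and 1935 CPM in the P131S clones and 1829, 817 and 875 CPM in the H137Y clones, against 1412 to 2047 CPM in large-subunit clones and 1433 to 1455 CPM in WT. The Rps15 clones thus fell into 3 with less Rps15 RNA than any large-subunit clone and 3 within the large-subunit range, and each mutation had clones of both kinds. The mean RNA difference did not pass the test (log2 difference -0.28 ± 0.16 SE, adjusted p = 0.157), and Rps15 footprints were lower (-0.53 ± 0.18, adjusted p = 0.0372), a borderline call that was lost under 19 of 36 alternatives, among them leaving out P131S clone 24 (-0.38) and P131S alone (-0.28). A point mutation leaves counts in place, so these values cannot check it.

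Rpl5 RNA was 1534 to 1588 CPM in the Rpl5+/- clones against 2300 to 2706 CPM in the Rps15 clones, and Rpl11 RNA was 1008 to 1150 CPM in the Rpl11+/- clones against 1843 to 2024 CPM. Rpl22 RNA was 664 to 712 CPM in Rpl22+/- clones and 509 to 727 CPM in Rpl22-/- clones, against 902 to 1298 CPM in Rps15 clones. Rpl10 RNA was 1765 to 1885 CPM in the R98S clones against 2189 to 2575 CPM. RNA of each of these 4 genes was thus lowest in the clones edited in it, and the Rps15 clones were higher than the mean of the large-subunit genotypes for Rpl5 (0.20), Rpl10 (0.18), Rpl11 (0.22) and Rpl22 (0.31), all as log2 differences. That mean includes the genotypes edited in the gene. Without them the difference no longer passed for Rpl5 (0.06, adjusted p = 0.203 without Rpl5+/-) and Rpl11 (0.06, adjusted p = 0.152 without Rpl11+/-), was 0.11 for Rpl10 without R98S, and was 0.19 and 0.18 for Rpl22 without Rpl22+/- and without Rpl22-/-. With clones pooled in 2 classes Rpl5, Rpl11 and Rpl22 RNA did not pass. Footprints differed for Rpl11 (0.42, adjusted p = 0.000919, and 0.29 without Rpl11+/-) and did not pass for Rpl22 (0.68, adjusted p = 0.0568) or Rpl5 (0.13, adjusted p = 0.221), though Rpl22 passed under 9 of 36 alternatives. Rpl10 footprints were too few to read, at 1.79 to 5.57 CPM in the R98S clones.

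Of the markers of the B lineage, only 2 of 16 in RNA were abundant enough to test. Ptprc, a pan-leukocyte phosphatase, was one and Cd79b, part of the B-cell receptor, the other, and Ms4a1, Dntt and Il7r had no RNA count in any of the 21 clones. The other 11 had RNA counts in at least 1 clone, too low to test. All 16 had footprint counts, and Ptprc, Cd79b and Vpreb1, a surrogate light chain of pro-B cells, were tested there, Vpreb1 at means of 0.106 CPM in Rps15 and 0.099 CPM in large-subunit clones. Most of the defining markers of the labelled pro-B identity were thus at or near 0 in both classes.

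At the RNA level 12772 genes were tested and 6487 (50.8%) were called, 3342 (26.2%) higher and 3145 (24.6%) lower in Rps15 clones. Most differences were small, with a median absolute log2 difference of 0.33 among called genes, and 726 genes were called at 2-fold or more, 363 in each direction. All 6 Rps15 clones lay above all 15 large-subunit clones for 391 genes (3.06%) and below them for 386 (3.02%). For footprints 15992 genes were tested and 3861 (24.1%) called, 1842 (11.5%) higher and 2019 (12.6%) lower, with no overlap between clones for 159 genes above (0.994%) and 146 below (0.913%). For efficiency 12014 genes were tested and 1311 (10.9%) called, 573 (4.77%) higher and 738 (6.14%) lower, with no overlap for 37 genes above (0.308%) and 68 below (0.566%).

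Of 2575 genes called for both RNA and footprints, 94.1% had the same direction. These calls rest on clones as the unit of replication. With 1 mean per genotype, 2 against 5 and limma-trend, 2006 RNA, 503 footprint and 1 efficiency gene passed (1800 efficiency genes at an unadjusted p under 0.05). With the clone as a block, since RNA and footprints came from 1 lysate, 1906 efficiency genes passed in place of 1311, of which 50.8% were higher in place of 43.7%.

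RNA of neutrophil granule genes was higher in the Rps15 clones. Of the 8 largest rises among genes of at least 5 CPM in 1 class and with no overlap, 6 were on the granule list. These 8 were ranked by the difference itself, so the count is a description only. Chil3 on the list and Mcpt8 off it, both among the 8, passed the filter on low counts only through the Rps15 clones. Of the 26 genes listed, 22 passed the filter on low counts, and 3 of these (Chil3, Ly6g and Cstdc6) passed it only through the Rps15 clones, which fixes their direction. Of the 19 that passed in the large-subunit clones alone, 18 were higher and none lower, with a median log2 difference of 4.64 against 0.01 over all genes tested, and 13 had no overlap between classes, as 3.06% of all genes did in that direction. In footprints 22 members passed in the large-subunit clones alone, of which 21 were higher and none lower (11.5% and 12.6% of all genes), with a median of 4.58. No member of 22 tested was called for efficiency, beside 10.9% of all genes, and with the clone as a block 1 was higher.

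Ms4a3, a membrane protein of granulocyte and monocyte progenitors, had RNA levels of 23.8, 56.9 and 26.7 CPM in the P131S clones and 24.4, 97.1 and 13.9 CPM in the H137Y clones. In the large-subunit clones it ran from 0 to 2.38 CPM (median 0.471), and in WT from 0.0377 to 1.46 CPM. Every Rps15 clone was above every large-subunit clone, by a log2 difference of 6.30 ± 0.45 (adjusted p = 5.75e-08). Stfa1, a stefin-type inhibitor of cysteine proteases, had 89.7, 251 and 48.5 CPM in P131S and 53.5, 192 and 57.1 CPM in H137Y clones, against 0.539 to 6.44 CPM (median 1.59) in large-subunit clones (5.70 ± 0.40, adjusted p = 5.76e-08).

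Cstdc5 and Stfa3, further stefin genes of the same cluster, had log2 differences of 5.93 ± 0.49 and 5.94 ± 0.50. Cstdc5 RNA ran from 152 to 1221 CPM in Rps15 clones and from 1.10 to 31.2 CPM in large-subunit clones. These stefin genes are close copies, so reads may have been shared among them and the value of any 1 copy is uncertain. Chil3, a chitinase-like secreted protein, had 2.71 to 15.2 CPM in Rps15 clones, and it had no count in 11 of the 15 large-subunit clones, whose highest value was 0.217 CPM. Its fitted difference depends on the few counts there and is not given as a fold. Ctsg, the granule serine protease cathepsin G, ran from 1.41 to 22.8 CPM against at most 0.686 CPM. Mcpt8, a serine protease of basophils that is not on the granule list, ran from 1.67 to 41.1 CPM against at most 0.900 CPM.

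Abundant members were higher as well. S100a8 and S100a9, which together form calprotectin, averaged 492 ± 354 and 733 ± 547 CPM (SD, n = 6) in Rps15 clones against 30.5 ± 34.3 and 49.1 ± 52.9 CPM (n = 15) in large-subunit clones (edgeR log2 differences 4.64 ± 0.52 and 4.55 ± 0.50). Ngp, a cathelicidin-like granule protein, averaged 463 ± 416 against 26.9 ± 26.8 CPM, and the collagenase Mmp8 81.5 ± 78.8 against 2.62 ± 2.39 CPM. S100a8, S100a9, Ngp and Mmp8 were chosen for mention after their values were seen, and of these Ngp overlapped between the classes.

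The granule signal varied strongly among the Rps15 clones. Summed over the list, RNA reached 3030, 7340 and 1420 CPM in P131S clones 24, 63 and 20 and 2190, 7510 and 1370 CPM in H137Y clones 16, 6 and 2. P131S clone 63 or H137Y clone 6 was the highest of the 6 for all 22 tested members, and for 21 of them these were the top pair. The 15 large-subunit clones summed to 145 to 854 CPM (median 258) and the WT clones to 176 to 409 CPM. The lowest Rps15 clone was therefore above the highest large-subunit clone, Rpl5+/- clone 76. Summed footprints showed the same separation, 2660 to 20700 CPM against 302 to 1950 CPM. In bulk libraries a larger share of cells with these transcripts and more transcript per cell cannot be told apart.

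**Figure D1:**
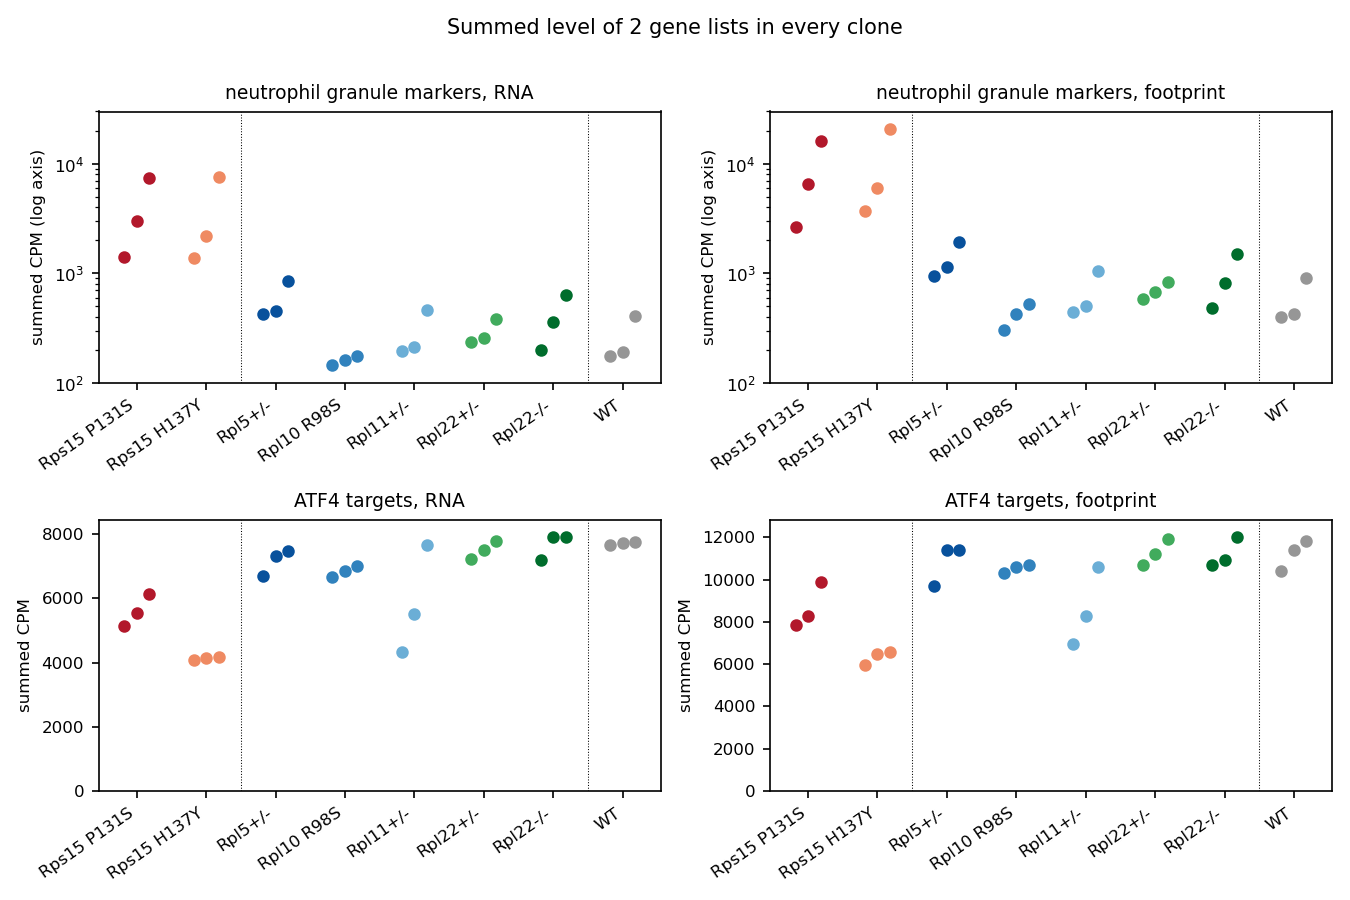
Summed CPM of neutrophil granule markers (26 genes, log axis) and ATF4 targets (43 genes, linear axis) in every clone, RNA on the left and footprints on the right, with 3 points per genotype sorted by value. All Rps15 clones lie above all large-subunit clones in the upper panels, between 1370 and 7510 CPM of RNA against 145 to 854 CPM, and in the lower left panel H137Y clones lie at 4080 to 4180 CPM with Rpl11+/- clone 22 close to them at 4340 CPM.

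Promoter sequence of the granule genes was examined. C/EBP and PU.1 are the transcription factors best known for driving granulocyte genes. The letters TTGCNNAA, a C/EBP-type motif, were searched on both strands of the 250 bases before the first listed RefSeq start (GRCm38.p6). They occurred in 9 of 20 tested granule genes with a promoter entry (45%), and in 2582 of all 27025 promoters (9.55%). With promoters that match at 70% or more of their bases merged, which joins 5 stefin genes, they occurred in 8 of 16. A PU.1-type motif, GAGGAAGT, occurred in 5 of the 20 (25%) and in 660 of all promoters (2.44%). A match describes the letters only. The list was made of known granulocyte genes, so these shares describe the list and not the Rps15 clones. The promoters of 2 stefin genes and of Mmp8 and Ngp (which holds 2 matches) are printed 5′ to 3′, with the C/EBP-type match in capitals, because they show a site shared by similar stefin promoters beside matches in others.
Stfa1, chr16:36276898-36277147, plus strand: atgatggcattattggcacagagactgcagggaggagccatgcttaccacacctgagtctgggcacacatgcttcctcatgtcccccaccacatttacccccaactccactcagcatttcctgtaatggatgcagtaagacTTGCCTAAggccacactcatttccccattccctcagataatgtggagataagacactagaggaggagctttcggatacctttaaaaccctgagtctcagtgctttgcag
Cstdc5, chr16:36367571-36367820, minus strand: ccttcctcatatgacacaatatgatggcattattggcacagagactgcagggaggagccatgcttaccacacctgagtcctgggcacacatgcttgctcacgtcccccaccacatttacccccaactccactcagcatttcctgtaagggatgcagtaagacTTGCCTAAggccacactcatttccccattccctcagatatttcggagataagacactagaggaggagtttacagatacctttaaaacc
Mmp8, chr9:7558179-7558428, plus strand: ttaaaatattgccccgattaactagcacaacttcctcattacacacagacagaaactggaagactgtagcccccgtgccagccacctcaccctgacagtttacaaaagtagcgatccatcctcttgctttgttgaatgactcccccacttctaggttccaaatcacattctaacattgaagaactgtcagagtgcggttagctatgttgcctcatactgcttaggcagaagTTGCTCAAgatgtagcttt
Ngp, chr9:110419558-110419807, plus strand: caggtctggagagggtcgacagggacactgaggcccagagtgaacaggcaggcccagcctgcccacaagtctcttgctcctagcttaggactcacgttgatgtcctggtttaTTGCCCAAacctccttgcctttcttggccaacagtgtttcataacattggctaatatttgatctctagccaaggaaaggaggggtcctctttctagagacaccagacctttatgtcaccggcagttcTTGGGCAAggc
The Stfa1 and Cstdc5 matches have the same 8 letters, and these promoters match at 75.5% of bases in their best alignment without gaps, so they are not separate examples.

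Outside the granule list the genes highest in Rps15 clones had diverse roles. Ston2, an endocytic adaptor of the stonin family, had 2.70 to 10.4 CPM in Rps15 clones and at most 0.623 CPM in large-subunit clones (5.38 ± 0.39). Abca1, which exports cholesterol to lipoproteins, had 28.0, 30.9 and 26.1 CPM in P131S clones and 48.5, 38.3 and 51.6 CPM in H137Y clones, against 8.09 to 16.5 CPM in large-subunit clones (1.70 ± 0.09, adjusted p = 1.69e-10). Rnpc3, a protein of the minor spliceosome, had 33.5 to 67.4 CPM against 17.7 to 24.2 CPM (1.34 ± 0.08).

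Kmt2d, a histone H3 lysine 4 methyltransferase, had 109, 108 and 90.4 CPM in P131S and 174, 170 and 153 CPM in H137Y clones against 58.4 to 81.7 CPM (0.96 ± 0.05, adjusted p = 1.69e-10). The very large ubiquitin ligase gene Ubr4 was 0.71 higher on the log2 scale, the kinase gene Map2k3 0.75 higher, and Pcbp2, which encodes a poly(C)-binding protein, 0.62 higher, each with no overlap between the classes. Pcbp2 had almost the same level in both Rps15 genotypes, 831 to 925 CPM in P131S and 816 to 892 CPM in H137Y, whereas Kmt2d and Abca1 were higher in H137Y than in P131S.

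**Figure D2:**
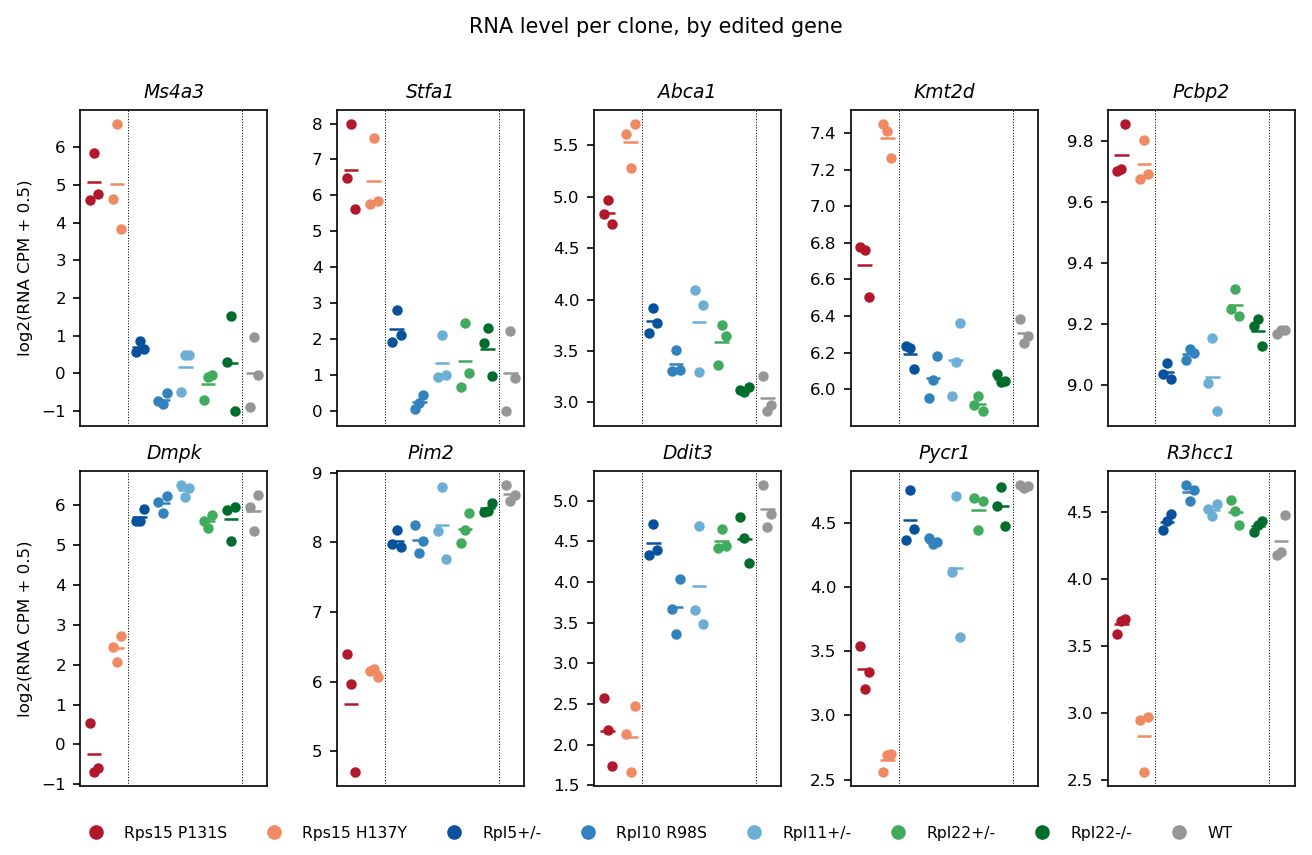
RNA level, log2(CPM + 0.5), of 10 genes in each of 24 clones, with points for clones, short bars for genotype means and dotted lines between Rps15, large-subunit and WT clones. In all 10 panels the 6 Rps15 points lie beyond the 15 large-subunit points, and Abca1, Kmt2d, Dmpk, Pycr1 and R3hcc1 show the H137Y clones apart from the P131S clones.

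Among the genes lower in Rps15 clones, the transcription factor gene Arnt2 was nearly absent, at 0 to 0.320 CPM with 3 of 6 clones at 0 counts, while large-subunit clones spanned 1.24 to 106 CPM and WT 12.7 to 52.2 CPM. Dmpk, the kinase gene of myotonic dystrophy, had 0.949, 0.119 and 0.167 CPM in P131S clones and 4.96, 3.66 and 6.09 CPM in H137Y clones, against 33.8 to 89.8 CPM in large-subunit clones (-5.37 ± 0.23, adjusted p = 1.69e-10). Extl1, a heparan sulfate glycosyltransferase gene, was 0.725 to 2.17 CPM against 3.97 to 27.8 CPM (-3.80 ± 0.37). These 3 genes were lower in all Rps15 clones than in any large-subunit clone.

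Cfp, encoding properdin of the complement system, had a log2 difference of -2.65 ± 0.31, Lat, an adaptor of T-cell receptor signaling, -2.64 ± 0.21, and Matn1, a matrix protein, -2.22 ± 0.24. The lowest p values belonged to R3hcc1, at 5.40 to 12.5 CPM against 19.8 to 25.4 CPM (-1.29 ± 0.06, adjusted p = 9.01e-11), Snrnp25, a protein of the minor spliceosome (-1.93 ± 0.10), Lage3, a subunit of the tRNA-modifying KEOPS complex (-0.99 ± 0.05), Rab19, a small GTPase (-2.06 ± 0.11), and Aox4, an aldehyde oxidase (-1.06 ± 0.06). In R3hcc1, Snrnp25, Lage3, Rab19 and Aox4 the H137Y clones were lower than the P131S clones as well.

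Targets of ATF4, the transcription factor of the integrated stress response, which drives amino acid synthesis and transport, were lower in the Rps15 clones. Of 35 tested targets 30 were lower and none higher in RNA (background 24.6% lower), with a median log2 difference of -0.67, and 29 of 37 were lower and none higher in footprints (background 12.6%), with a median of -0.61. Efficiency changed for 1 of 35, beside 10.9% of all genes. This was Atf4 itself (-0.67 ± 0.14, adjusted p = 0.00176), whose translation is known to be controlled by upstream reading frames. With the clone as a block 3 targets were higher and 1 lower in efficiency, beside 969 and 937 of all 12014 genes. The 35 targets tested at both levels had both differences below 0 in 33 cases. With genotype means, 14 targets passed in RNA and 6 in footprints.

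Pycr1, of proline synthesis, had 11.1, 8.71 and 9.60 CPM in P131S clones and 5.39, 5.97 and 6.01 CPM in H137Y clones, against 11.7 to 27.0 CPM in large-subunit clones and 26.8 to 27.2 CPM in WT (-1.52 ± 0.12, adjusted p = 2.36e-08). Ddit3, which encodes the stress factor CHOP, had 5.46, 4.04 and 2.84 CPM and 3.89, 2.66 and 5.05 CPM in the same order, against 9.78 to 27.4 CPM (-2.22 ± 0.21). In both genes no Rps15 clone reached the lowest large-subunit clone. Cebpg, a partner of ATF4, ran from 43.6 to 52.6 CPM against 53.2 to 90.3 CPM (-0.61 ± 0.06).

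In footprints the lowest p values of the list belonged to Sesn2, an inhibitor of mTORC1 (29.6 to 33.9 CPM against 37.5 to 73.9 CPM, -0.95 ± 0.09), Pck2, mitochondrial phosphoenolpyruvate carboxykinase (-1.42 ± 0.15), and Trib3, a pseudokinase that restrains ATF4 (12.3 to 27.7 CPM against 28.3 to 117 CPM, -1.87 ± 0.21). For RNA of Asns, asparagine synthetase, the means were 108 ± 37.6 CPM (SD, n = 6) and 237 ± 60.0 CPM (n = 15), with a log2 difference of -1.17 ± 0.18. Nupr1, a stress-induced chromatin protein, averaged 8.24 ± 8.40 against 32.1 ± 15.0 CPM, and Trib3 RNA 15.6 ± 4.18 against 65.7 ± 21.8 CPM. Asns, Nupr1 and the RNA of Trib3 were chosen after their values were seen, and Nupr1 did not pass for P131S alone (-1.01).

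Summed over 43 targets, ATF4-target RNA was 5550, 5130 and 6130 CPM in P131S clones 24, 63 and 20 and 4180, 4130 and 4080 CPM in H137Y clones 16, 6 and 2. The large-subunit clones ran from 4340 to 7910 CPM (median 7240) and WT from 7680 to 7750 CPM. The classes overlapped only through Rpl11+/- clones 22 and 406, at 4340 and 5510 CPM. The H137Y clones were below the P131S clones, and of 35 tested targets 14 were higher in P131S than in H137Y and none lower, against 12% and 11% of all genes tested. Against the large-subunit clones, 20 targets were lower in P131S alone and 30 in H137Y alone, where 21.4% and 19.3% of all genes were lower.

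The ATF4-type motif TGATGNAA was searched on both strands of the same 250 bases. It occurred in 8 of 29 tested ATF4 targets with a promoter entry (27.6%) and in 954 of 27025 promoters (3.53%). The list was drawn from known ATF4 targets, so the share describes the list and not the Rps15 clones. The promoters of 3 targets that were lower are printed to show where the match lies, 103, 23 and 110 bases before the start for Pycr1, Asns and Nupr1 (first base of the match), in capitals.
Pycr1, chr11:120643749-120643998, minus strand: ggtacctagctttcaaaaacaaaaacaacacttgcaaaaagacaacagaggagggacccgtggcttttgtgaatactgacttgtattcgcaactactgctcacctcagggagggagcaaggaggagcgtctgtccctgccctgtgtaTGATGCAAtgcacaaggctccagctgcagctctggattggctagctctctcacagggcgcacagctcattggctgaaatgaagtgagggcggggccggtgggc
Asns, chr6:7693210-7693459, minus strand: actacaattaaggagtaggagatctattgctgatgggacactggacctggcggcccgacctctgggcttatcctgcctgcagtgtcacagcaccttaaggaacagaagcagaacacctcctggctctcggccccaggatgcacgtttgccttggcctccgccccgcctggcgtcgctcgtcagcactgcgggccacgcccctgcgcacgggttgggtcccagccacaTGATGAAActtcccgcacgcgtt
Nupr1, chr7:126625471-126625720, minus strand: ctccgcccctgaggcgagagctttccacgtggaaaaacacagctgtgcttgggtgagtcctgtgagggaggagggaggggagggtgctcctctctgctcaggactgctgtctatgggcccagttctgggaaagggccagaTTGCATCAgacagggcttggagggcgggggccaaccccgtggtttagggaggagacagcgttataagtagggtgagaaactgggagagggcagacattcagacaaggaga
In Nupr1 the match is on the opposite strand, and its letters are therefore the reverse complement of the motif.

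Aminoacyl-tRNA synthetases, which load amino acids onto tRNAs and several of which are ATF4 targets, were lower for 15 (65.2%) and higher for 3 of 23 in RNA (median -0.26), where 24.6% of all genes were lower, and lower for 12 (52.2%) and higher for 1 in footprints, where 12.6% were lower. Sars had 126 to 186 CPM in Rps15 clones against 161 to 318 CPM (-0.84 ± 0.10), Lars -0.50 ± 0.07, and Qars -0.39 ± 0.05, the only one of these 3 without overlap. Against the large-subunit clones 15 synthetases were lower in RNA in H137Y alone, beside 19.3% of all genes. In P131S alone 6 were lower, close to the 21.4% of all genes.

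Of 27 genes of the interleukin 3 response 18 (66.7%) were lower and 5 higher in RNA (median -0.26), beside 24.6% of all genes lower, and 12 (44.4%) were lower and 3 higher in footprints (median -0.48), beside 12.6%. Pim2, a survival kinase induced by STAT5, had 83.3, 62.0 and 25.5 CPM in P131S and 70.4, 72.2 and 66.7 CPM in H137Y clones, against 217 to 443 CPM in large-subunit clones and 386 to 451 CPM in WT. The RNA difference was -2.23 ± 0.21 (adjusted p = 5.67e-07), and the footprint difference was -2.26 ± 0.19. The ERK phosphatase genes Dusp6 (20.7 to 46.6 against 60.4 to 89.5 CPM, -0.97 ± 0.11) and Dusp5 (-1.20 ± 0.13) were lower as well, and footprints of Bcl2l1, which encodes the survival protein BCL-XL, were 45.5 to 74.7 CPM, below the lowest large-subunit clone at 81.7 CPM (-0.74 ± 0.07). With genotype means, 7 members were lower in RNA, as were 1098 of all 12772 genes. For RNA in P131S alone 17 of the 27 were lower and 4 higher, beside 21.4% and 23.2% of all genes. For H137Y alone 8 were lower and 3 higher, beside 19.3% and 21.3%.

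Of 19 immediate early transcription factors 8 (42.1%) were lower and 5 (26.3%) higher in RNA, beside 24.6% and 26.2% of all genes. The 8 fell to 3 without H137Y clone 6 and to 5 without Rpl22+/-, and the 5 higher fell to 3 without Rpl5+/-. Egr3 (-1.47 ± 0.19) and Egr2 (4.48 to 14.4 against 15.7 to 34.6 CPM, -1.31 ± 0.18) were lower in every Rps15 clone than in any large-subunit clone. Jun was higher on average (0.75 ± 0.10), by 1.27 in P131S and 0.23 in H137Y, where it did not pass the test (37.4 to 74.2 CPM against 40.9 to 64.3 CPM, adjusted p = 0.181). Among 24 interferon-stimulated genes 6 were lower and 2 higher, shares of 25% and 8.33%, with 3 lower when Rpl10 R98S was left out, and Ifit2, which inhibits translation of foreign RNA, was -0.81 ± 0.08. Of 29 p53 targets 9 were lower and 3 higher in RNA, 31% and 10.3%. In footprints 11 of 31 p53 targets (35.5%) were lower and 2 (6.45%) higher (median -0.24), beside 12.6% and 11.5% of all genes. With genotype means 4 were lower in footprints.

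Cholesterol synthesis genes were higher for 16 (66.7%) and lower for 1 of 24 in RNA (median 0.30), beside 26.2% of all genes higher, and higher for 13 (54.2%) and lower for 1 in footprints (median 0.26), beside 11.5%. Hsd17b7, a reductase of the pathway, had 30.0, 31.5 and 33.8 CPM in P131S and 34.9, 36.3 and 35.8 CPM in H137Y clones, against 18.9 to 30.1 CPM in large-subunit clones (0.60 ± 0.06, adjusted p = 1.63e-07). The lowest Rps15 clone and the highest large-subunit clone were nearly level. The count was similar for each Rps15 genotype alone, 14 of 24 higher in P131S and 15 in H137Y, beside 23.2% and 21.3% of all genes.

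**Figure D3:**
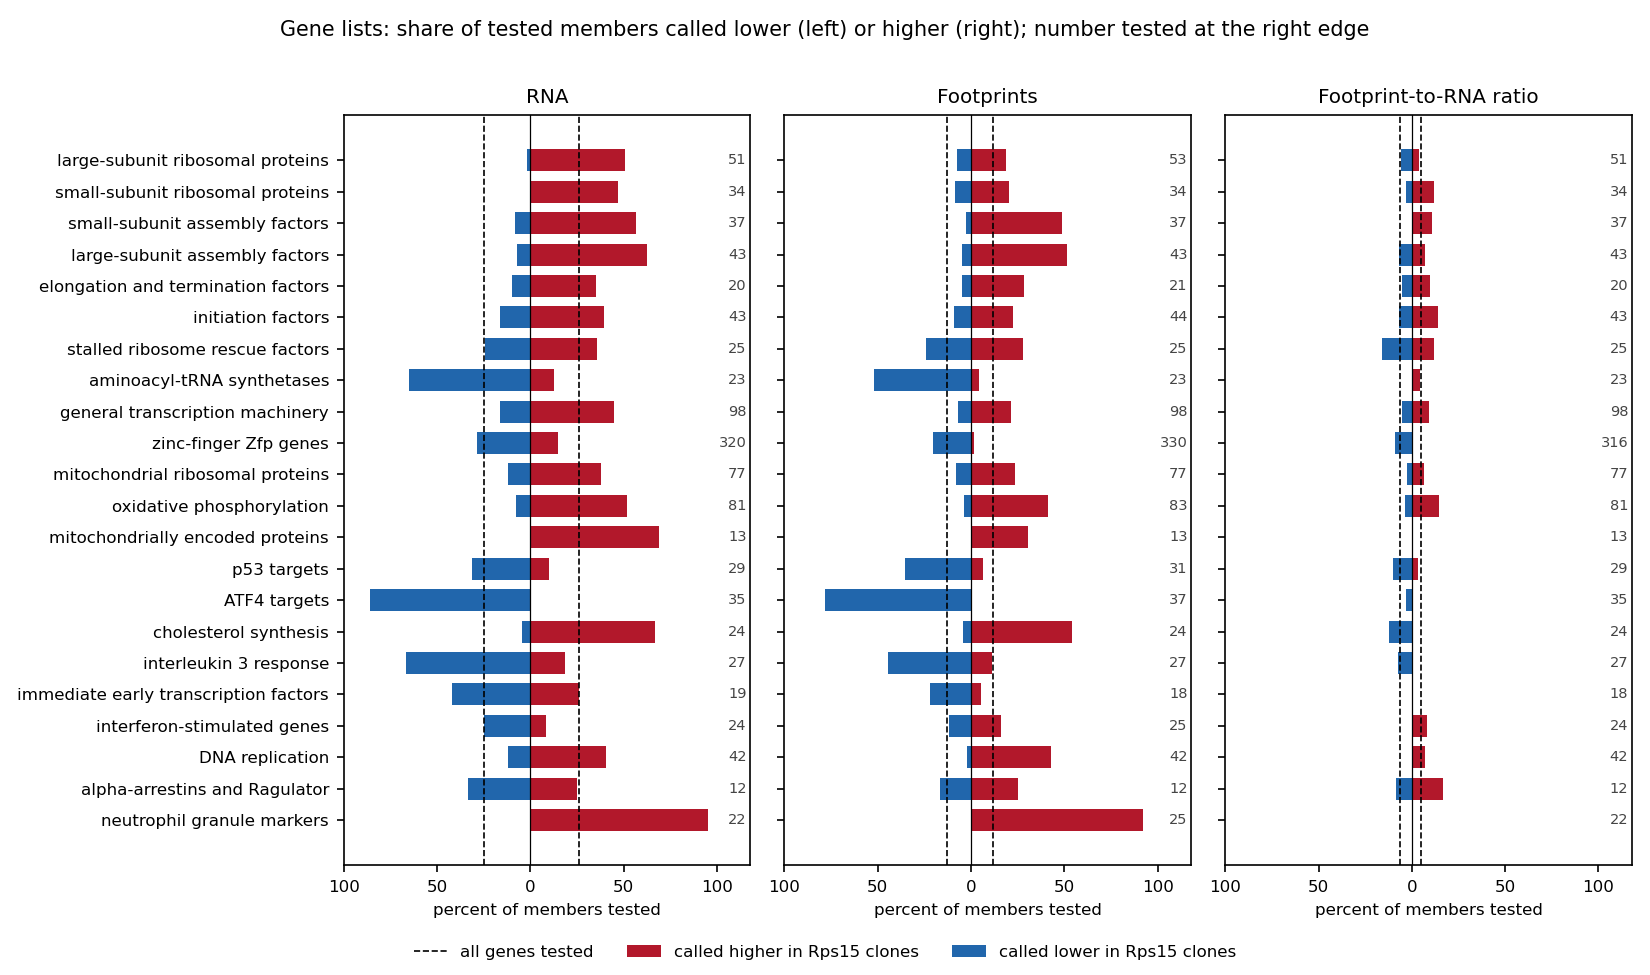
Share of tested members of 22 gene lists called higher (red, right) or lower (blue, left) in Rps15 clones for RNA, footprints and the footprint-to-RNA ratio, with the number tested at the right edge and dashed lines at the share over all genes tested. The neutrophil granule list reaches 95.5% higher of 22 tested in RNA and the ATF4 list 85.7% lower, while in the efficiency panel no list exceeds 16.7% in either direction. Of these 22 granule genes 3 passed the filter on low counts only through the Rps15 clones, which fixes their direction.

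For genes of the ribosome itself RNA differences were small. Of 51 large-subunit ribosomal protein genes 26 (51%) were higher and 1 lower, with a median log2 difference of 0.09, and of 34 small-subunit genes 16 (47.1%) were higher and none lower, with a median of 0.10, beside 26.2% of all genes higher. These counts rested on 1 reference genotype and on clones as units: 14 and 10 were higher without Rpl22+/-, and 1 and 0 passed with genotype means. Rplp0, of the ribosomal stalk, had 7792 to 8930 CPM in Rps15 clones against 5357 to 7693 CPM (0.40 ± 0.04), and Rps9 2677 to 2834 against 2186 to 2611 CPM (0.22 ± 0.03). In footprints 10 of 53 large-subunit genes were higher (18.9%) and 4 lower, and 7 of 34 small-subunit genes higher (20.6%) and 3 lower, beside 11.5% and 12.6% of all genes. The 10 fell to 5 without P131S clone 20 and to 6 without H137Y clone 16, Rpl5+/- or Rpl22+/-, and the 4 lower rose to 7 without Rpl10 R98S, Rpl22+/- or Rpl22-/-.

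Efficiency changed for 5 of 51 large-subunit ribosomal protein genes and 5 of 34 small-subunit ones, beside 10.9% of all genes. The 4 higher small-subunit calls fell to 2 without any 1 of 7 clones. Rpl29 had the largest fall, with ratios of -2.64 to -1.41 on the log2 scale in Rps15 clones and -2.31 to -0.136 in large-subunit clones (-1.25 ± 0.16, adjusted p = 2.26e-06). Rps18 ratios were higher (0.92 ± 0.14) and Rps10 ratios lower (-0.60 ± 0.11). The classes overlapped for all 3, and each of these genes has many near-identical pseudogene copies that could take up short reads.

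Of 37 factors that assemble the small subunit 21 (56.8%) were higher and 3 lower in RNA (median 0.20) and 18 (48.6%) higher and 1 lower in footprints (median 0.26). Of 43 large-subunit factors 27 (62.8%) were higher and 3 lower in RNA (median 0.19) and 22 (51.2%) higher and 2 lower in footprints (median 0.23). Of all genes 26.2% were higher in RNA and 11.5% in footprints. The 22 fell to 14 without P131S clone 20, and with genotype means 5 of each set were higher in RNA and none in footprints. Mdn1, the giant AAA ATPase that remodels the pre-60S particle, had 97.2 to 170 CPM in Rps15 clones against 43.4 to 84.6 CPM (1.18 ± 0.10, adjusted p = 1.71e-07). Its footprints rose less (0.58 ± 0.08) and its efficiency was lower (-0.56 ± 0.14).

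Utp20, of the small-subunit processome, was 0.61 ± 0.08 higher and Bop1, of the PeBoW complex, 0.58 ± 0.06 higher in RNA. Heatr1 footprints were 233 to 346 CPM against 165 to 221 CPM (0.39 ± 0.06). Emg1, a methyltransferase of 18S rRNA, was higher in footprints (0.48 ± 0.07) and in efficiency (0.53 ± 0.08, no overlap). For RNA in P131S alone, 25 of the 37 small-subunit factors and 26 of the 43 large-subunit factors were higher, beside 23.2% of all genes. For H137Y alone 10 and 10 were higher, close to the 21.3% of all genes. The test between the genotypes called 8 of 37 and 12 of 43 higher in P131S and none lower, beside 12% and 11% of all genes.

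Among factors of translation the elongation factor gene Eef1a1 had 16290 to 21740 CPM in Rps15 clones against 13240 to 16030 CPM (0.33 ± 0.04). Eif2s2, encoding the beta subunit of the initiation factor eIF2, was lower (-0.72 ± 0.08), as was Eif2a (85.0 to 94.5 against 105 to 139 CPM, -0.42 ± 0.04), and Eif2s3x, encoding the gamma subunit, had a higher efficiency (0.67 ± 0.11, no overlap). Among 43 initiation factors 17 (39.5%) were higher and 7 (16.3%) lower in RNA, and among 20 elongation and termination factors 7 (35%) were higher and 2 (10%) lower, beside 26.2% and 24.6% of all genes. The 17 fell to 11 without P131S clone 20. For P131S alone 16 initiation factors were higher and 5 lower, beside 23.2% and 21.4% of all genes. For H137Y alone 6 were higher and 8 lower, beside 21.3% and 19.3%. Factors of stalled ribosome rescue gave 9 higher (36%) and 6 lower (24%) of 25 in RNA. In footprints 7 (28%) were higher and 6 (24%) lower, beside 11.5% and 12.6% of all genes.

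Genes of the general transcription machinery were higher for 44 and lower for 16 of 98 in RNA, 44.9% and 16.3% beside 26.2% and 24.6% of all genes, and higher for 21 (21.4%) and lower for 7 (4 without P131S clone 20) in footprints, beside 11.5% and 12.6%. For RNA in P131S alone 46 were higher and 5 lower, beside 23.2% and 21.4% of all genes. For H137Y alone 26 were higher and 23 lower, beside 21.3% and 19.3%. The RNA rise was thus mostly in P131S. Taf13, a subunit of TFIID, had 37.3 to 48.8 CPM in Rps15 clones against 25.7 to 33.1 CPM (0.53 ± 0.05, adjusted p = 3.30e-08). Taf12, another TFIID subunit, was higher in RNA (0.52 ± 0.05), and its footprints were 201, 253 and 309 CPM in P131S clones, 104, 86.5 and 92.7 CPM in H137Y clones and 53.1 to 86.8 CPM in large-subunit clones (1.21 ± 0.09). The Taf12 footprint gain was thus mostly in P131S, and its efficiency in H137Y clones, 0.316 to 0.679, lay within the large-subunit range of -0.0889 to 0.805. Med11, a Mediator subunit, was higher in footprints (0.83 ± 0.11).

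Zinc-finger genes named Zfp went the other way, most plainly in footprints. Of 330 tested, 68 (20.6%) were lower and 6 (1.82%) higher in footprints, beside 12.6% and 11.5% of all genes, with a median of -0.36 against -0.03. The 6 higher fell to 3 without any 1 of 5 clones and to 2 without Rpl10 R98S. In RNA 92 of 320 were lower and 47 higher (28.7% and 14.7%), beside 24.6% and 26.2% of all genes. For efficiency 29 of 316 were lower and 2 higher (9.18% and 0.633%), beside 6.14% and 4.77%, with a median of -0.21 against 0.02. The RNA counts differed by mutation, with 92 lower and 27 higher for P131S alone and 47 lower and 56 higher for H137Y alone. Of all genes 21.4% were lower and 23.2% higher in P131S, and 19.3% and 21.3% in H137Y. Zfp217 footprints were 10.0 to 21.1 CPM in Rps15 clones against 22.2 to 34.3 CPM (-0.96 ± 0.14), with a lower efficiency (-0.73 ± 0.15). Zfp740 RNA was 54.3 to 64.9 CPM, below all large-subunit clones (-0.45 ± 0.04). Many Zfp genes have low counts and close paralogs, and whether either moves with the result was not tested.

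RNA of mitochondrial genes differed by Rps15 mutation and, in H137Y, by genome. The median log2 difference of nuclear oxidative phosphorylation genes was 0.306 for P131S and -0.0874 for H137Y. For mitochondrially encoded genes it was 0.289 and 0.633. Nuclear genes of oxidative phosphorylation were higher for 42 (51.9%) and lower for 6 of 81 in RNA, beside 26.2% and 24.6% of all genes. The 42 fell to 27 without P131S clone 20, H137Y clone 2 or Rpl10 R98S. For P131S alone 67 were higher and 3 lower, beside 23.2% and 21.4% of all genes. For H137Y alone 5 were higher and 22 lower, beside 21.3% and 19.3%. The test between the genotypes called 70 of 81 higher in P131S and none lower, and 53 of 77 mitochondrial ribosomal protein genes higher and none lower, where 12% and 11% of all genes were called. The mean over both mutations therefore does not describe either one for these lists. In footprints 34 of 83 (41%) were higher and 3 lower, beside 11.5% and 12.6% of all genes.

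Cox6c, a subunit of cytochrome oxidase, was higher in footprints, 286 to 389 CPM against 152 to 210 CPM (0.80 ± 0.07), and in efficiency (0.62 ± 0.10). Uqcrq, of complex III, was higher in efficiency in both genotypes (0.55 ± 0.09, no overlap), while Ndufs5, of complex I, had ratios of 0.281 to 0.566 in P131S clones and 1.68 to 2.25 in H137Y clones against 0.939 to 2.90 (-1.04 ± 0.17). Of 13 mitochondrially encoded genes 9 (69.2%) were higher and none lower in RNA (median 0.47), beside 26.2% and 24.6% of all genes. For P131S alone 5 were higher and for H137Y alone 8, beside 23.2% and 21.3% of all genes, and none was lower. In footprints 4 (30.8%) were higher and none lower, beside 11.5% and 12.6%, and none was higher without Rpl22+/-. The footprint median was 0.598 for P131S and -0.0674 for H137Y. In RNA the gene for cytochrome b, CYTB, had 3953 to 7963 CPM against 2444 to 4173 CPM (0.73 ± 0.09), and ND4 1720 to 3310 against 1260 to 1710 CPM (0.61 ± 0.08). The highest value of both was in H137Y clone 6, and ND3 was 0.72 ± 0.10 higher.

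DNA replication genes were higher for 17 (40.5%) and lower for 5 of 42 in RNA, beside 26.2% and 24.6% of all genes, and higher for 18 (42.9%) and lower for 1 (2.38%) in footprints, beside 11.5% and 12.6%. The 18 fell to 11 without P131S clone 20 or H137Y clone 2, and the 5 lower in RNA rose to 8 without Rpl22+/- clone 60 or Rpl11+/-. For RNA in P131S alone 19 were higher and 2 lower, beside 23.2% and 21.4% of all genes. For H137Y alone 8 were higher and 6 lower, beside 21.3% and 19.3%. Rpa2, of the single-strand binding complex, had 71.5 to 96.4 CPM in Rps15 clones against 49.0 to 68.8 CPM (0.51 ± 0.07). Footprints of Pcna, the sliding clamp, were 840 to 1209 CPM against 597 to 922 CPM (0.46 ± 0.08). Pold2, a subunit of polymerase delta, was lower in RNA (-0.45 ± 0.05).

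The naming rule picked further genes from the footprint data. Cyp11a1, the cholesterol side-chain cleavage enzyme, had 555, 747 and 512 CPM in P131S, 282, 524 and 296 CPM in H137Y and 97.7 to 209 CPM in large-subunit clones (1.64 ± 0.13). Kpna4, a nuclear import receptor, was 178 to 285 against 73.3 to 117 CPM (1.14 ± 0.09), and Asph, an aspartyl hydroxylase, 512 to 601 CPM in P131S and 329 to 346 CPM in H137Y against 219 to 290 CPM (0.77 ± 0.05, adjusted p = 6.91e-08). Tango2 was 1.42 ± 0.12 higher, and Csta1, another stefin gene, had 8.24 to 54.9 CPM against at most 1.14 CPM.

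Lower in footprints were St3gal2, a sialyltransferase (8.96 to 24.3 against 42.7 to 111 CPM, -2.21 ± 0.18), Trgc1, a constant segment of the T-cell receptor gamma locus (-1.85 ± 0.15), Podnl1 (-2.62 ± 0.36), Trmt10b, a tRNA methyltransferase (-1.54 ± 0.13), and Nrip1, a nuclear receptor corepressor (at most 42.2 CPM against at least 64.7 CPM, -1.22 ± 0.08). In each of these 5 genes the classes did not overlap. WT footprints of St3gal2 were 72.4 to 114 CPM and those of Nrip1 78.0 to 81.6 CPM, inside or close to the large-subunit range.

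**Figure D4:**
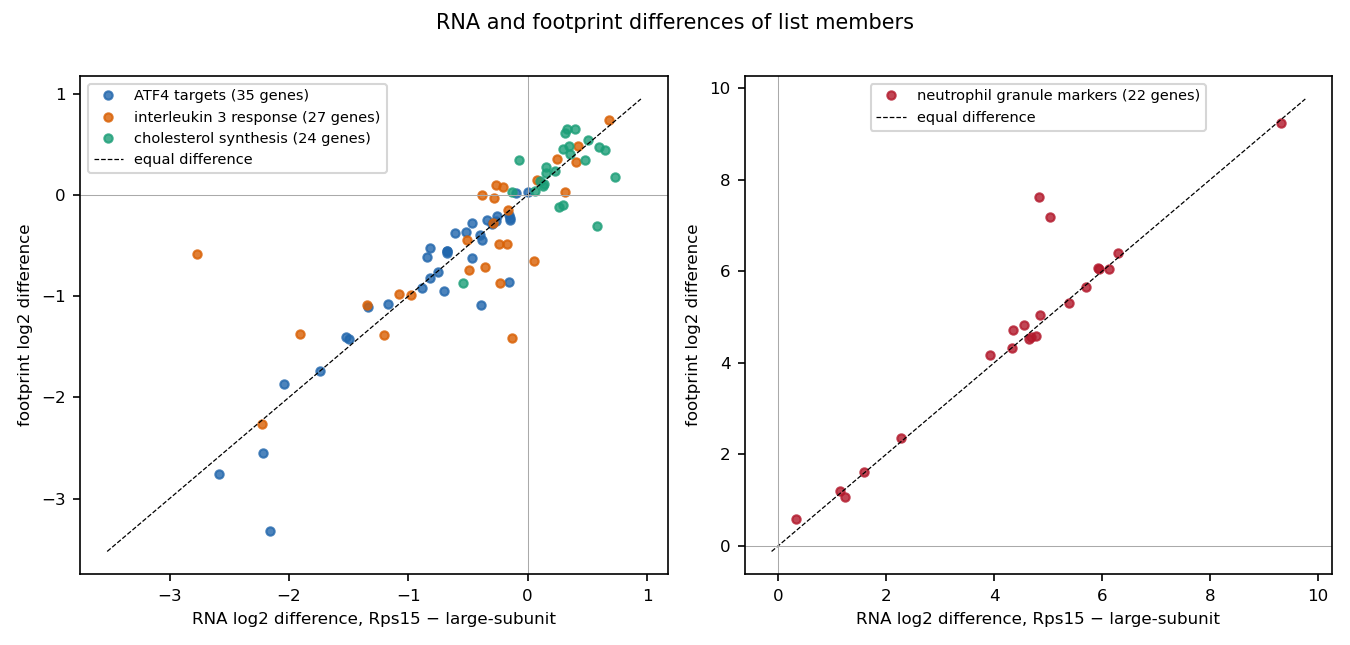
Each point is a list member, with its RNA log2 difference on the horizontal axis and its footprint log2 difference on the vertical axis, Rps15 minus large-subunit clones, for ATF4 targets, interleukin 3 response and cholesterol synthesis (left) and neutrophil granule markers (right). Of 35 ATF4 targets 33 lie at the lower left, with both differences below 0, and the 22 tested granule markers in the upper right, near the dashed line of equal differences. Among these 22, Chil3, Ly6g and Cstdc6 passed the filter on low counts in RNA only through the Rps15 clones.

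Efficiency calls were fewer and more often lower at large size, with 127 of 159 calls of 2-fold or more in the lower direction. Of the 738 genes with lower efficiency 371 were higher in RNA and 475 lower in footprints, and of the 573 with higher efficiency 212 were lower in RNA and 360 higher in footprints. RNA enters both the RNA difference and the ratio, so an opposite sign of these is favored by construction. Mib1, a ubiquitin ligase of Notch ligands, had log2 ratios of -3.37, -3.65 and -3.61 in P131S clones and -3.73, -3.31 and -3.77 in H137Y clones, against -2.66 to -2.06 in large-subunit clones and -2.38 to -2.35 in WT (-1.28 ± 0.10, adjusted p = 1.70e-10). Its footprints were 8.90 to 12.8 CPM against 21.0 to 37.1 CPM, the same separation in the ribosome-bound signal.

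Runx3, a hematopoietic transcription factor gene, had ratios of -4.65 to -3.95 against -3.79 to -2.35 (-1.44 ± 0.19), with the Rpl10 R98S clones nearest to the Rps15 clones. Arrdc3, an alpha-arrestin, had higher RNA (24.4 to 48.4 against 16.2 to 27.7 CPM, 0.93 ± 0.11) and a lower ratio (-1.50 ± 0.23), with footprints of 2.43 to 8.49 against 4.56 to 13.5 CPM. Birc6, a giant ubiquitin ligase and inhibitor of apoptosis, had ratios of 0.921 to 1.02 in P131S and 0.0783 to 0.337 in H137Y clones against 1.11 to 1.53 (-0.73 ± 0.07, adjusted p = 4.49e-09).

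Mycbp2, another very large ubiquitin ligase, was at -1.62 to -0.819 against -0.603 to -0.152 (-0.85 ± 0.09), and Kat14, an acetyltransferase of the ATAC complex, at -3.65 to -3.05 against -2.69 to -1.60. Lower ratios without overlap were also found for Rnf10 (-0.85 ± 0.09) and Ankib1 (-0.82 ± 0.09), both RING-type ubiquitin ligases, Gid4 (-1.08 ± 0.16), the substrate receptor of the CTLH ligase, Pkn2 (-1.04 ± 0.14), a serine/threonine kinase, Ranbp6 (-1.21 ± 0.17), an importin, and Stxbp5 (-1.03 ± 0.17), the vesicle protein tomosyn. These genes were picked by the naming rule one by one, and no list of ubiquitin ligases was tested.

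**Figure D5:**
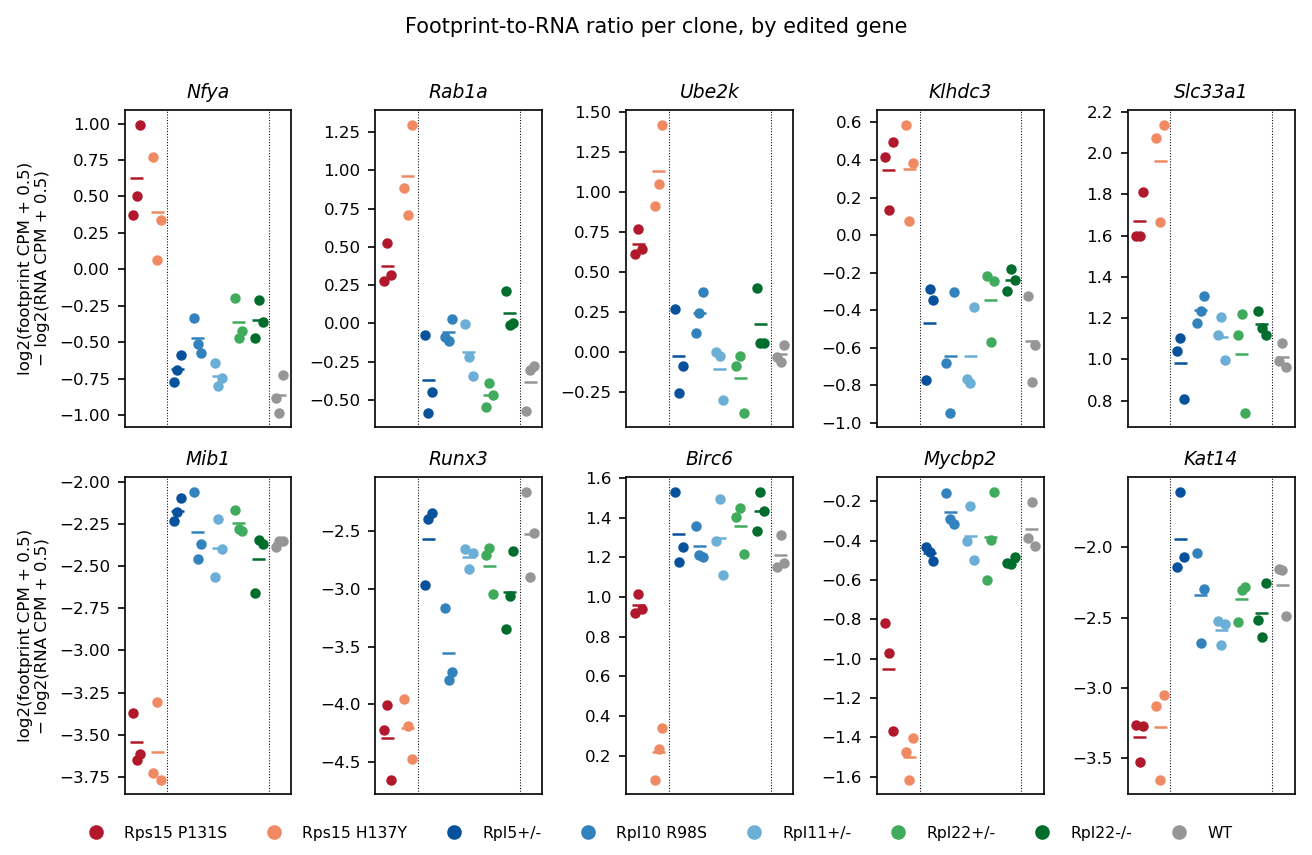
Footprint-to-RNA ratio, log2(footprint CPM + 0.5) minus log2(RNA CPM + 0.5), of 5 genes with higher and 5 with lower ratios in the Rps15 clones, one point per clone, short bars for genotype means and dotted lines between Rps15, large-subunit and WT clones. In the upper row the Rps15 points lie above all large-subunit points and in the lower row below them, and the Birc6 panel shows H137Y clones well below P131S clones.

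Higher efficiency without overlap was found for Nfya, a subunit of the CCAAT-binding factor NF-Y, with ratios of 0.376, 0.502 and 0.994 in P131S and 0.771, 0.0635 and 0.338 in H137Y clones against -0.800 to -0.200 in large-subunit clones and -0.983 to -0.725 in WT (1.09 ± 0.12, adjusted p = 1.02e-07). Rab1a, a GTPase of transport from the endoplasmic reticulum, had 0.277 to 1.3 against -0.582 to 0.214 (0.89 ± 0.10). Ube2k, a ubiquitin-conjugating enzyme, had 0.610 to 1.42 against -0.381 to 0.399 (0.90 ± 0.11).

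Trappc6b, of a vesicle tethering complex (1.01 ± 0.17), Tipin, of the replication fork protection complex (0.95 ± 0.13), Klhdc3, a substrate receptor of a ubiquitin ligase (0.84 ± 0.11), and Slc33a1, the acetyl-CoA transporter of the endoplasmic reticulum (0.72 ± 0.09), also had higher ratios without overlap. Lamtor1, which anchors the Ragulator complex to the lysosome, had footprints of 10.8 to 42.4 against 4.14 to 17.7 CPM (1.44 ± 0.14) and a higher efficiency (1.28 ± 0.15), with overlap between the classes. Of 12 tested alpha-arrestin and Ragulator genes, 3 (25%) were higher and 4 (33.3%) lower in RNA, close to the 26.2% and 24.6% of all genes.

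Markers of other blood cells were given the same test, in which 26.2% of all genes were higher in RNA and 24.6% lower. Of 7 tested mast cell and basophil markers 5 were higher and 1 lower in RNA. Mcpt8 was among the higher ones, but it passed the filter on low counts only through the Rps15 clones, which fixes its direction. Whether the other members would pass in the large-subunit clones alone was not tested. Cd200r3, an activating receptor of basophils and mast cells, had 14.1, 54.1 and 20.2 CPM in P131S and 0.957, 2.98 and 2.89 CPM in H137Y clones against 0.0674 to 2.78 CPM (4.75 ± 0.42), while Kit, Mcpt4 and Tpsb2 had no RNA count in any of the 21 clones and Gata2 was lower (-0.41 ± 0.06). Summed RNA of the list overlapped, 349 to 644 CPM in Rps15 against 352 to 600 CPM in large-subunit clones.

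Among 8 tested monocyte and macrophage markers 3 were higher and 3 lower. Lyz2, lysozyme, had 5.49 to 68.0 against 0.436 to 11.1 CPM (3.58 ± 0.39), and Cd68 was lower (-1.44 ± 0.22). Of 6 tested erythroid markers 2 were higher and 1 lower, with the globin gene Hbb-b1 at 30.9, 3.42 and 1.42 CPM in P131S and from 22.9 to 201 CPM in H137Y clones against 0.115 to 11.9 CPM. Its clones overlapped with those of the large-subunit class. For P131S alone none of the 6 erythroid markers was higher and 3 were lower, beside 23.2% and 21.4% of all genes. For H137Y alone 5 were higher and none lower, beside 21.3% and 19.3%. The mean over both mutations therefore describes neither for this list. Itgb3, the integrin beta 3 of megakaryocytes, was at 15.9 to 34.8 CPM in P131S and 63.4 to 112 CPM in H137Y clones against 2.93 to 20.3 CPM (2.39 ± 0.20), 1 of 5 tested megakaryocyte markers that was higher, with 1 lower. The 5 megakaryocyte markers also went by mutation, with 1 higher and 2 lower for P131S alone and 4 higher and none lower for H137Y alone. Of 3 tested T-cell markers none was higher and 1 lower. Whether these markers and the granule genes rise in the same cells was not tested.

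The pair of Rps15 mutations differed from each other in many genes that also set them apart from the large-subunit clones. In RNA 2947 genes differed between P131S and H137Y, as did 555 in footprints and 92 in efficiency. Both share the large-subunit clones as reference, so their differences are given side by side only. Of all genes tested in RNA 12% were higher and 11% lower in P131S than in H137Y. None of the 22 tested granule genes differed between P131S and H137Y. Their list summed to 1420 to 7340 CPM in P131S and 1370 to 7510 CPM in H137Y clones. With that spread and 3 clones each, the absence of a call does not show equal levels. Cholesterol genes differed for 2 of 24, and ATF4 targets for 14 of 35. Tested against each of the 5 large-subunit genotypes in turn, the mean of the Rps15 genotypes was higher than every one for 792 genes in RNA, 153 in footprints and 12 in efficiency, and lower than every one for 858, 250 and 40.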

How the data were processed

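RNA-seq and ribosome footprint libraries of 21 clones were compared, 6 Rps15 and 15 large-subunit. The authors deposited estimated counts per gene, which need not be whole. The submitters' processing notes name STAR 2.6.1d, Salmon 1.4.0, DESeq2 1.30 and the mouse build GRCm38. The role of each tool is not given in the sources used here.

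Estimated counts were rounded to whole numbers. Genes were kept with at least 10 counts in 3 libraries, scaled to library size, and 15 counts in all. TMM factors were computed within each assay. The tests were two-sided edgeR 4.0.16 quasi-likelihood F tests (R 4.3.3) with 1 term per genotype, Benjamini-Hochberg adjustment over all genes tested and a threshold of 0.05. Efficiency was the assay-by-genotype term in 42 libraries, over 12014 genes. Errors after a log2 difference (±) are standard errors. limma 3.58.1 and DESeq2 1.42.0 gave alternatives, and matplotlib 3.10.9 the figures.

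The labels say that a clone's lysate was divided between the assays. Deviations of a clone's 2 libraries from their genotype means correlated at 0.151 to 0.55 over 12014 genes in 21 of 21 clones. Those between different clones of 1 genotype ran from -0.454 to -0.0224, and the libraries were taken as paired by clone.

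Named genes were the 8 largest differences and the 6 lowest p values per level and direction among genes of at least 5 CPM whose classes did not overlap, the edited genes, and up to 3 of lowest p per list, of which a few are not reported here. The members and lists were chosen with earlier results of these data known. On simulated data 200 genes per level were changed, all among the better counted ones. RNA recovered 100% of 2-fold and 87% of 1.5-fold changes, footprints 74% and 38%, and efficiency 87% and 40%, all with the right sign. Unchanged genes made up 6.03%, 3.45% and 5.22% of the calls. Promoters came from RefSeq (GRCm38.p6), of which 29 of 35 ATF4 targets and 20 of 22 granule genes had an entry. The filter in the large-subunit clones alone and the merging of similar promoters (best shift of up to 30 bases, no gaps) were chosen after seeing the data.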

Additional observations from a re-analysis of the deposited data

Results flagged for a closer look

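Of 144 gene and level pairs named in the text, 11 had 1 Rps15 clone whose gap to the nearest of the other 5, relative to the range, exceeded Dixon's critical value. Chance gives about 1 in 20 such groups. Clone 20 of P131S stood apart for Pim2 RNA at 25.5 CPM (others 62 to 83.3), Dusp6 RNA at 20.7 CPM (others 34.5 to 46.6), Bop1 RNA at 178 CPM, Pim2 footprints at 16.4 CPM (others 37.2 to 53.2), Heatr1 footprints at 346 CPM (others 233 to 266) and Gid4 log2 ratio at -4.19 (others -3.1 to -2.72). Clone 6 of H137Y stood apart for CYTB RNA at 7960 CPM (others 3950 to 4890), ND4 RNA at 3310 CPM (others 1720 to 2080), Eef1a1 RNA at 21700 CPM (others 16300 to 18100) and Cd68 RNA at 1.1 CPM (others 2.52 to 3.64). Clone 24 of P131S stood apart for Trib3 RNA at 23.9 CPM (others 12.3 to 15).

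For 35 pairs the P131S and H137Y clones differed by the edgeR test of that difference (adjusted p under 0.05), here as P131S minus H137Y on the log2 scale. RNA was higher in P131S for R3hcc1 (0.877), Snrnp25 (1.32), Lage3 (1.21), Rab19 (0.624), Aox4 (0.783), Pycr1 (0.77), Dusp5 (1.05), Eif2s2 (0.528) and Taf12 (0.268). RNA was higher in P131S for Jun (1.04), Pold2 (0.353), Cd200r3 (3.72), Asns (0.883) and Nupr1 (3.15). RNA was lower in P131S for Abca1 (-0.695), Kmt2d (-0.686), Rnpc3 (-0.494), Ubr4 (-0.336), Dmpk (-3.57), Matn1 (-1.33), CYTB (-0.481), ND4 (-0.411) and Eef1a1 (-0.201). RNA was lower in P131S for Ifit2 (-0.634) and Itgb3 (-1.94). Footprints were higher in P131S for Asph (0.719), Pck2 (1.04), Uqcrq (0.742), Taf12 (1.44) and Lamtor1 (1.08). Footprints were lower in P131S for Tango2 (-0.904) and Bcl2l1 (-0.469). Efficiency was higher in P131S for Birc6 (0.742) and Taf12 (1.17). Efficiency was lower in P131S for Ndufs5 (-1.67). The adjusted p of Lage3 RNA was 8.43e-08 and that of ND4 RNA 0.046.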

How the results depend on the processing

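Leaving out 1 clone at a time gave 5911 to 6632 RNA calls, 3080 to 4009 footprint calls and 1008 to 1418 efficiency calls, each lowest without P131S clone 20. Leaving out a large-subunit genotype gave 5893 to 6556, 3353 to 3811 and 971 to 1245. Other scaling, tools, filters and WT clones in the fit gave 6069 to 6746, 3509 to 4362 and 1020 to 1544. Genotype means, 2 against 5, gave 2006, 503 and 1, with fewer units to estimate the spread. Against the large-subunit clones H137Y alone gave 2300 footprint and 766 efficiency calls and P131S alone 729 efficiency calls, and with clones pooled in 2 classes 645 efficiency genes passed. With the clone as a replicate block 1906 efficiency genes passed (50.8% higher), of which 1237 were among the 1311, and per-clone log ratios gave 1825. None of the 32 efficiency values named in the text lost its call under the block. Over 144 named values and their alternatives, 5121 kept direction and side of the threshold, 115 lost and 11 gained the call, and 62 of the losses came with genotype means. The Rpl5 footprint log2 difference turned to -0.0254 without Rpl5+/-, the genotype edited in it. Amino acid content by efficiency call was not run. At these depths 38% of simulated 1.5-fold footprint changes were recovered, so footprint differences of that size can be missed. The simulation changed far fewer genes than were called here and only better counted ones, so its shares need not hold for these data.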
